A study of Mus musculus with 6 samples.

Results

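Hedgehog signalling was examined through 9 genes: the ligand genes Dhh, Shh and Ihh, the receptor-side genes Ptch1, Smo and Hhip, and the transcription factor genes Gli1, Gli2 and Gli3. They were chosen by name, and all 9 were found among the 21786 gene symbols counted in each of 6 whole-testis libraries of polyadenylated RNA. Of the libraries, 3 came from Stra8 -/- males aged 1 year, whose testes were grossly enlarged and, per the labels, held mostly cells resembling type A spermatogonia. The other 3 came from Stra8 +/+ males aged 2 to 4 months, for which the labels note no enlargement, and all 6 libraries are of C57BL/6 background. The product of Stra8 acts at the start of meiosis in germ cells, and the comparison asked how mRNA levels of the enlarged testes differ from wild-type ones. Genotype, age and enlargement cannot be told apart, because all 3 change together, and in bulk tissue fewer cells of a type and less RNA per cell cannot be told apart either.

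Hedgehog ligands are secreted, lipid-modified proteins that bind Patched receptors and so release Smoothened from inhibition. Active Smoothened lets the Gli factors switch target genes on, and among those targets are Ptch1, Gli1 and Hhip themselves, which serve as readouts of the pathway. In the testis the ligand of note is Desert hedgehog, made by Sertoli cells, the supporting cells of the seminiferous tubule. Leydig cells, which make testosterone, and peritubular cells, which wrap the tubule, are known to respond to it.

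Libraries held 6733128 to 12425689 reads in genes. Levels are given as CPM, counts scaled to library size and the TMM factor, and differences as log2 fold changes with their SE, where a value above 0 is higher in Stra8-deficient testes. A gene was called changed at a Benjamini-Hochberg adjusted p under 0.05 in edgeR's quasi-likelihood test, fitted over 15018 genes. Stra8 itself was read in all libraries, at 21.2, 23.7 and 18.1 CPM in Stra8-deficient and 18.7, 18.6 and 17.1 CPM in wild-type testes (0.21 ± 0.21, adjusted p = 0.384). The deleted part of the allele is not given in the sources used here, so this level does not check the labels. Haploid germ cell genes did follow them: 8 such genes summed to 6.95 to 14.1 CPM in Stra8-deficient and 24151 to 28193 CPM in wild-type testes. The libraries labelled Stra8-deficient differed among themselves in somatic genes. The second held 19.1 CPM of 9 Leydig cell genes together, the first 357 and the third 2832, against 870 to 1361 CPM in wild type. The third was counted on a different and longer gene list than the other 5, with 1499 symbols found only in it and 269 only in theirs. Whether the gene models of the members differ in that library is not given in the sources used here.

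Of the 9 members, 8 had enough reads to be tested, and 4 of them rose, 2 fell and 2 were not called. Dhh fell most, while Ihh, Ptch1, Smo and Gli3 rose, Gli2 fell, and Gli1 and Hhip were not called. For Ihh, the Stra8-deficient reads alone were enough for the test. Across all genes tested 75.8% were called, 39% higher and 36.7% lower, so the share of members called was close to that of genes at large. Leaving out the second or the third Stra8-deficient library gave the same 4 higher and 2 lower members. Without the first, or without any 1 of the wild-type libraries, 4 were higher and 1 lower, as Gli2 lost its call. In 7 of the 9 members, among them the untested Shh, the libraries of the genotypes did not overlap. Over the genes tested, a set without Shh, the share was 80.2%, judged on log2 CPM.

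**Figure D1:**
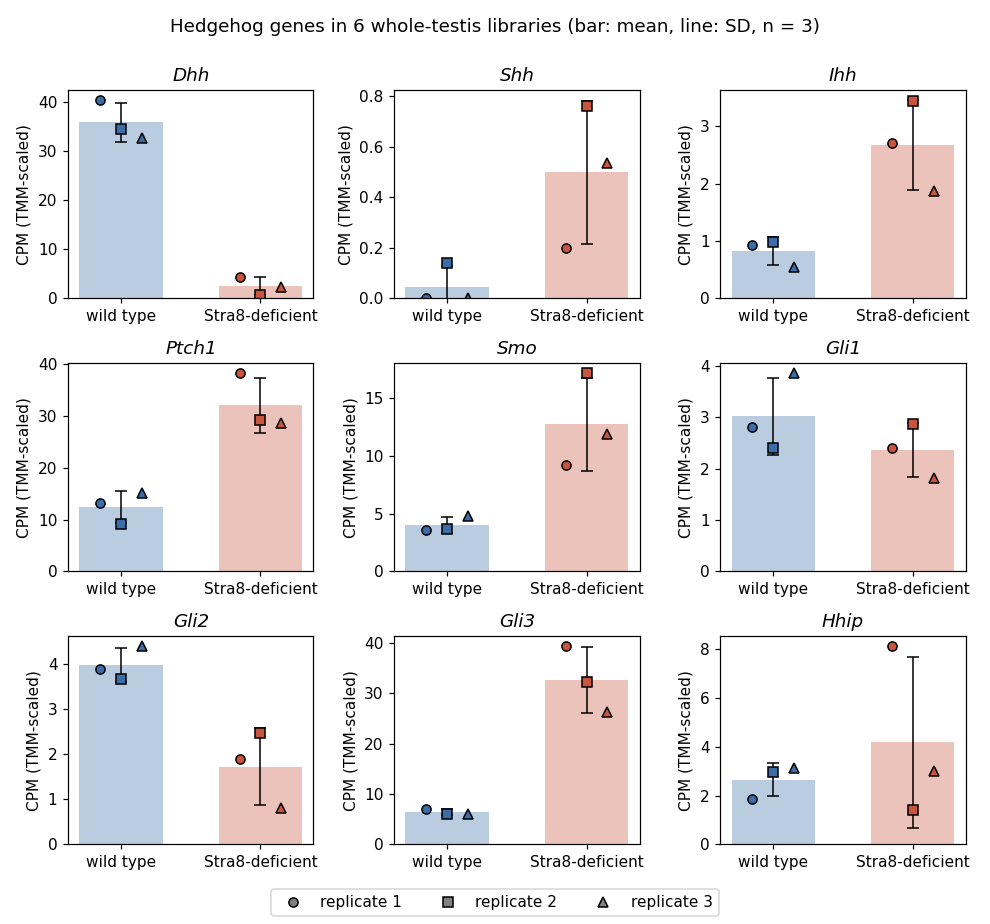
CPM (vertical axes, each starting at 0) of the 9 members in the wild-type (blue) and Stra8-deficient (red) libraries; symbols are single libraries, bars the mean and lines the SD over 3 libraries. Dhh lay at 32.7 to 40.3 CPM in wild type and at 0.667 to 4.32 CPM in Stra8-deficient testes, whereas Ptch1, Smo, Gli3 and Ihh were higher in each Stra8-deficient library than in any wild-type one.

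Because ligand, receptor and Gli genes moved apart, their promoter sequences are shown for the member that fell most, for Ptch1 and Gli3, which rose together, and for Gli2, which fell. Windows of the 250 bases before the transcription start were taken from RefSeq on GRCm38.p6, where 7 of the 9 members had one; Gli1 and Shh did not. The search was for the Gli consensus GACCACCCA and its inner letters ACCACCC, which lie within it, and for TATAAA, all on both strands. Capitals mark a match, written 5′ to 3′ on the strand of the gene.
Dhh, chr15:98898541-98898790, minus strand: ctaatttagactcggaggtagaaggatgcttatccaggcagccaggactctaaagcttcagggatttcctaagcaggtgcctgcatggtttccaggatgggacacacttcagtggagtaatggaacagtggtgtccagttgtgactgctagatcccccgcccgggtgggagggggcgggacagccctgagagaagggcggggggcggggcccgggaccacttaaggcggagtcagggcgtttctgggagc
Ptch1, chr13:63565736-63565985, minus strand: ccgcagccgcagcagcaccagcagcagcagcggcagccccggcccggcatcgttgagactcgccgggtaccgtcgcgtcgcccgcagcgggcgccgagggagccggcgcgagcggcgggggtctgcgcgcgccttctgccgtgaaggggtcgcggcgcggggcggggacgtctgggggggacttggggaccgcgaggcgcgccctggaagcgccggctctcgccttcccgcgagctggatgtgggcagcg
Gli3, chr13:15463473-15463722, plus strand: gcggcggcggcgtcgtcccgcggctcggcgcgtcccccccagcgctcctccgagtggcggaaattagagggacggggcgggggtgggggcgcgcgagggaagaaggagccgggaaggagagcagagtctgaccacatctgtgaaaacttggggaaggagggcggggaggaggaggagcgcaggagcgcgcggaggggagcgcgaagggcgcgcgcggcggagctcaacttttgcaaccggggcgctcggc
Gli2, chr1:119053620-119053869, minus strand: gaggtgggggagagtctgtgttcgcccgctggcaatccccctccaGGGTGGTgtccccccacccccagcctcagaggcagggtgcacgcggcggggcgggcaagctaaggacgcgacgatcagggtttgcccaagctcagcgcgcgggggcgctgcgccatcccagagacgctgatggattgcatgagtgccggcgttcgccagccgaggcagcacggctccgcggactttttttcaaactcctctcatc
None of the 7 windows held the full consensus, which occurred in 0.225% of the 32851 windows of all genes. The inner letters were found once, in the Gli2 window, on the reverse strand and starting 205 bases before the start site (-205); 3.92% of all windows hold them. TATAAA was in none of the 7 and in 12.4% of all windows. The windows differed in composition: the one of Dhh had 59.6% G and C and 9 CpG dinucleotides, that of Ptch1 78.4% and 41, that of Gli3 72.8% and 34, and that of Gli2 67.2% and 22, against medians of 52.4% and 6 over all windows. These counts describe the letters only.

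Dhh carried nearly all ligand reads of wild-type testes and made up a smaller share in each Stra8-deficient one. It was read 258, 244 and 178 times in wild-type libraries, or 40.3, 34.5 and 32.7 CPM. In the Stra8-deficient libraries it was read 43, 7 and 35 times, or 4.32, 0.667 and 2.34 CPM. The groups did not overlap, and the second Stra8-deficient library, the lowest, lay below both others of its group by more than 3-fold. On the log2 scale the difference came to -3.87 ± 0.51 (edgeR, adjusted p = 1.04e-04), a fall of 14.7-fold. In the GENCODE M21 annotation the Dhh locus overlaps that of Rhebl1 on the same strand, so some reads of either could have been set aside as ambiguous. Rhebl1 moved the other way, from 2.73 ± 0.382 to 58.7 ± 14.7 CPM (SD, n = 3 each).

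Ihh, Indian hedgehog, best known from growing cartilage and the gut, rose from a low level. It was read 6, 7 and 3 times in wild-type and 27, 36 and 28 times in Stra8-deficient testes. These were 0.937, 0.988 and 0.550 CPM against 2.71, 3.43 and 1.88 CPM. Every Stra8-deficient library lay above every wild-type one, with a log2 fold change of 1.65 ± 0.44 (edgeR, adjusted p = 0.00748). Ihh passed the filter on low counts through its Stra8-deficient reads alone, so it was tested only because it was higher there. Shh, Sonic hedgehog, the ligand of limb and neural tube patterning, was almost unread. It had 0, 1 and 0 reads in wild-type and 2, 8 and 8 in Stra8-deficient libraries, too few to pass the filter on low counts. The ratio of the summed rates, 18 reads against 1, was 9.63 with a 95% counting interval of 1.52 to 401, which covers counting error only. Without the filter it was at 2.99 ± 1.13 (edgeR, adjusted p = 0.0374).

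The balance among the ligand genes differed between the genotypes. Dhh made up 97.7%, 96.8% and 98.3% of the reads of the 3 ligands in wild-type libraries (95% Wilson intervals 95.1 to 99.0, 93.9 to 98.4 and 95.2 to 99.4). In the Stra8-deficient libraries it made up 59.7%, 13.7% and 49.3% (48.2 to 70.3, 6.81 to 25.7 and 38.0 to 60.7). Per kilobase of the longest M21 transcript, the Dhh share was 94.7% to 97.2% in wild-type and 46.5%, 8.66% and 36.8% in Stra8-deficient libraries. No Stra8-deficient library reached the lowest wild-type share on either scale.

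The fall of Dhh went along with a fall of most Sertoli cell genes. Among 17 Sertoli genes tested, edgeR called 12 lower and 1 higher and left 4 uncalled, with a median log2 fold change of -3.32 against 0.11 over all genes tested. Their summed level was 1599, 927 and 1936 CPM in Stra8-deficient and 2790 to 3070 CPM in wild-type testes; without Clu, the gene that differed most in CPM, the sums were 895 to 1478 and 1424 to 1628 CPM and overlapped. The markers differed among themselves. Wt1, a factor of Sertoli cell identity, was read 643, 493 and 879 times in Stra8-deficient libraries and was not called (-0.31 ± 0.18), and Gata4, another such factor, was read 146, 88 and 173 times and fell by 2.10 ± 0.24. Others were nearly unread there: Amh, anti-Müllerian hormone, had 4, 0 and 3 reads and Fshr, the receptor for follicle-stimulating hormone, 2, 1 and 4, against 21 to 22 and 25 to 43 in wild type. The higher member was Dmrt1 (3.85 ± 0.35), which spermatogonia express as well. Both sums above, with and without Clu, include it, at 854, 367 and 419 CPM in Stra8-deficient and 33.9 to 42.2 CPM in wild-type testes. The overlap without Clu is thus one of sums that hold Dmrt1. How far Dhh fell beyond other Sertoli genes depended on the gene it was set against. Per 100 reads of the Sertoli list Dhh had 1.31, 1.23 and 1.17 reads in wild-type and 0.270, 0.0720 and 0.121 in Stra8-deficient libraries, a log2 difference of -3.22 that exact two-sided permutation gave p = 0.1, the smallest that 3 against 3 libraries allow. With the geometric mean of the list in place of its sum the difference was -1.45, and without Dmrt1 -2.51 (both exact permutation p = 0.1). Per read of Sox9, the transcription factor of Sertoli cell fate, Dhh had 0.989, 0.868 and 0.932 reads in wild-type and 1.30, 0.412 and 1.03 in Stra8-deficient libraries. Those ranges overlap, and the log2 difference was -0.18 (exact permutation p = 1). The Sox9 ratio and the list without Dmrt1 were chosen after seeing the data.

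**Figure D2:**
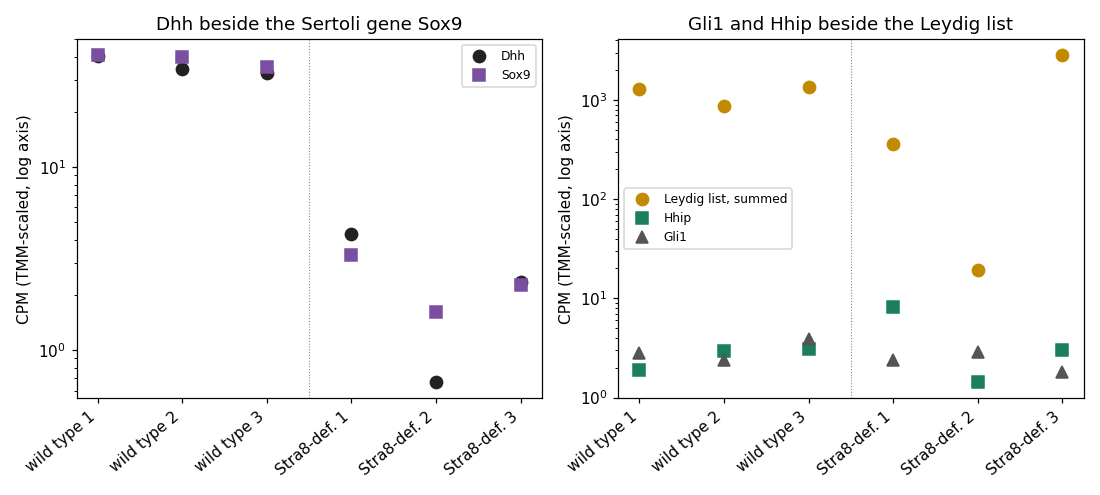
CPM on log axes in each library, with a dotted line between the genotypes. On the left Dhh and Sox9 lie close together in 5 libraries, with Dhh below Sox9 in the second Stra8-deficient one (0.412 reads of Dhh per read of Sox9); on the right the summed Leydig list spans 19.1 to 2832 CPM in the Stra8-deficient libraries while Gli1 stays between 1.81 and 2.86 CPM and Hhip between 1.43 and 8.13 CPM.

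Nerve sheath cells also make Dhh in other tissues. Of 7 nerve and Schwann cell genes tested, 2 were higher, 3 lower and 2 not called, and their summed level was 64.6 to 77.3 CPM in Stra8-deficient and 36.7 to 43.8 CPM in wild-type testes; without Mbp the sums overlapped (29.2 to 45.2 CPM against 31.7 to 38.0 CPM). Sox10, the defining Schwann cell factor, was at 5.42, 1.62 and 2.14 CPM against 2.19, 2.12 and 4.95 CPM, and these overlap. Their part in the level of Dhh was not tested.

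On the receiving side both signal-transducing receptors rose. Ptch1, Patched, which binds the ligands and holds the pathway off without them, was at 38.2, 29.2 and 28.7 CPM in Stra8-deficient and 13.1, 9.18 and 15.2 CPM in wild-type testes. The groups did not overlap, and the log2 fold change came to 1.36 ± 0.25 (edgeR, adjusted p = 9.68e-04). Smo, Smoothened, the membrane protein that passes the signal into the cell, was at 9.23, 17.1 and 11.9 CPM against 3.59, 3.67 and 4.77 CPM. It too was higher in every Stra8-deficient library (1.67 ± 0.33, edgeR, adjusted p = 0.00148). Hhip, a decoy receptor that binds and holds ligands, was at 8.13, 1.43 and 3.01 CPM against 1.87, 2.97 and 3.12 CPM. The groups overlapped, since only the first Stra8-deficient library lay above the wild-type ones, and Hhip was not called (0.65 ± 0.61, edgeR, adjusted p = 0.352). Without that library its value was -0.27.

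The 3 Gli factors went different ways. Gli3, which acts mostly as a repressor when the pathway is off, was at 39.3, 32.3 and 26.4 CPM in Stra8-deficient and 7.03, 6.07 and 6.05 CPM in wild-type testes. No library of the former came near the latter, with a log2 fold change of 2.35 ± 0.24 (edgeR, adjusted p = 2.26e-05), a rise of 5.10-fold. Gli2, the main activator in many tissues, was at 1.91, 2.48 and 0.804 CPM against 3.90, 3.67 and 4.40 CPM. The groups did not overlap, but the third Stra8-deficient library lay well under both others, and the change was called by a small margin (-1.22 ± 0.45, edgeR, adjusted p = 0.0337). The call on Gli2 was lost without the first Stra8-deficient library (-1.33) or without wild-type library 1, 2 or 3 (-1.24, -1.29 and -1.16), and also with library-size scaling (-0.60). Gli1, an activator that is itself a Gli target, was at 2.41, 2.86 and 1.81 CPM against 2.81, 2.40 and 3.85 CPM. Its groups overlapped and it was not called (-0.35 ± 0.37, edgeR, adjusted p = 0.409), and its sign turned with library-size scaling (0.26). Gli1 shares its locus with Arhgap9 on the opposite strand, and as no source used here gives the strand setting, their reads cannot be told apart where they overlap. Arhgap9 was at 0.669 ± 0.280 CPM in wild-type and 3.85 ± 2.11 CPM in Stra8-deficient testes (SD, n = 3 each).

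Per kilobase of transcript, Gli3 made up 40.2%, 39.4% and 31.5% of the summed Gli level in wild-type and 84.5%, 78.6% and 85.1% in Stra8-deficient libraries. Gli1 made up 32.4%, 31.3% and 40.3% against 10.4%, 14.0% and 11.7%. No Gli factor thus made up most of the summed level in wild-type testes, though Gli3 lay above Gli2 in each library. In the Stra8-deficient ones Gli3 made up most of it. The Gli1 share may hold reads of Arhgap9, where the loci overlap. In wild type the order of levels per kilobase was led by Dhh (8.44 ± 0.941 CPM per kb), then Ptch1 (1.62 ± 0.397), Smo (1.06 ± 0.174), Gli3 (0.781 ± 0.0681), Gli1 (0.745 ± 0.184), Gli2 (0.602 ± 0.0563), Ihh (0.334 ± 0.0970), Hhip (0.292 ± 0.0748) and Shh (0.0165 ± 0.0286; SD, n = 3 each). The intervals of mean ± SD overlapped between these neighbours: Ptch1 and Smo, Gli3 and Gli1, Gli1 and Gli2, and Ihh and Hhip. In Stra8-deficient testes Ptch1 (4.15 ± 0.692 CPM per kb), Gli3 (4.00 ± 0.794) and Smo (3.37 ± 1.07) led, with overlapping intervals of mean ± SD. Ihh followed (1.08 ± 0.315), and Gli1 (0.581 ± 0.130), Dhh (0.576 ± 0.431), Hhip (0.462 ± 0.386), Gli2 (0.261 ± 0.128) and Shh (0.175 ± 0.0992) came after it, neighbours among these 5 again having overlapping intervals. Transcript lengths come from GENCODE M21, which need not match the gene models counted.

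Genes of the cells known to answer Hedgehog ligands were uneven across libraries, while Gli1 varied little. Of 9 Leydig cell genes edgeR called 0, with 0 at an unadjusted p under 0.05, while DESeq2 called 0, edgeR's exact test 1 and limma 2. Without the third Stra8-deficient library edgeR called 4 of them and without the second 1. The sums spanned 148-fold within the Stra8-deficient libraries. Insl3, a hormone of Leydig cells, was read 1166, 1 and 17922 times there. Gli1 per 100 reads of the Leydig list was 0.675, 14.9 and 0.0639 in Stra8-deficient and 0.218, 0.276 and 0.283 in wild-type libraries (log2 difference 1.75, exact two-sided permutation p = 0.7), and the difference was -0.31 without the second Stra8-deficient library. Of 8 peritubular genes, 1 was higher, 4 lower and 3 not called, with sums of 190, 184 and 449 CPM against 519 to 564 CPM. Gli1 per 100 reads of the peritubular list was 1.27, 1.55 and 0.403 against 0.540, 0.462 and 0.683 (log2 difference 0.74, exact permutation p = 0.4). That difference was 1.34 without the third and 0.37 without the second Stra8-deficient library. Of 9 fibroblast genes tested, 3 were higher, 2 lower and 4 not called, with sums of 244 to 463 CPM against 136 to 160 CPM. Endothelial genes had 2 higher, 0 lower and 3 not called (51.8 to 80.1 CPM in sum against 23.2 to 31.0 CPM), and macrophage genes 4 higher, 0 lower and 2 not called (184 to 634 CPM against 86.6 to 94.5 CPM). Each of these 3 gaps closed when a single gene, picked after seeing the data, was left out. Sums overlapped without Col1a1 (130 to 309 CPM against 123 to 146 CPM) and without Pecam1 (26.4 to 33.9 CPM against 20.2 to 28.4 CPM). Macrophage sums overlapped without Lyz2 (86.6 to 338 CPM against 80.9 to 90.9 CPM). They still held Mrc1, at 21.8, 12.3 and 74.5 CPM in Stra8-deficient and 56.5 to 67.1 CPM in wild-type testes. Of the other macrophage genes, Cd68, Csf1r and Adgre1 were each called higher without overlap, and Cd163 and Mrc1 were not called. Spermatogonial genes moved with the members that rose: all 10 were higher, at 2375 to 3339 CPM against 148 to 185 CPM in sum. The part of these cells in the levels of Ptch1, Smo and Gli3 was not tested.

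Beyond the members, 55 other genes of the pathway were followed in 4 lists, of which 46 were tested: 17 rose, 17 fell and 12 were not called, with a median of -0.15. Those shares, too, were near the ones of all genes.

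Co-receptors included genes that rose and a gene that fell. Of 6 genes in this list, 2 rose, 1 fell and 3 were not called. The uncalled ones include Disp3, listed as Ptchd2 (0.05 ± 0.55), a relative of Patched rather than a co-receptor. Cdon and Boc are related surface proteins that help ligands bind Patched. Cdon rose from 16.3 ± 2.57 to 50.6 ± 3.35 CPM (1.64 ± 0.20), whereas Boc fell from 16.0 ± 2.72 to 4.34 ± 1.31 CPM (-1.87 ± 0.32; SD, n = 3 each). Scaled to the Sertoli list, Boc was at -0.91 and uncalled (adjusted p = 0.0626). Gas1, the other such helper, was not called (-0.44 ± 0.37). Gpc3, a glypican that binds Hedgehog ligands and restrains them, rose by 3.66 ± 0.33.

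Of 5 tested genes that prepare and release the ligand, 3 fell, 1 rose and 1 was not called. Scube2, a secreted carrier of the lipid-modified ligand, was read 139, 183 and 126 times in wild-type and 9, 2 and 9 times in Stra8-deficient libraries, and it fell by 5.35 ± 0.44 (edgeR, adjusted p = 4.74e-06). Its relative Scube3 fell by 1.18 ± 0.32, a call lost with library size alone (-0.56, adjusted p = 0.142) and when scaled to the Sertoli list (-0.17, adjusted p = 0.735). Scube1 rose by 0.85 ± 0.30 (edgeR, adjusted p = 0.0266), a call lost without any 1 of the wild-type libraries and with RLE factors, DESeq2, the replicate block or scaling to the Leydig list. Hhatl, a relative of the ligand acyltransferase, fell by 3.80 ± 0.49. Hhat, the acyltransferase itself, was not called (-0.06 ± 0.34), and Disp1, which exports the ligand, is listed at 0 in all 6 libraries.

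In the relay from Smoothened to the Gli factors 12 of 22 genes fell, 6 rose and 4 were not called, with a median of -0.93. Of all genes tested 36.7% fell and 39% rose, with a median of 0.11. Sufu, which holds Gli proteins in check, fell from 243 ± 15.3 to 10.4 ± 3.67 CPM (-4.55 ± 0.28, edgeR, adjusted p = 7.31e-07). Stk36, the mouse Fused kinase, which is also needed for motile cilia, fell from 333 ± 13.3 to 14.2 ± 3.76 CPM (-4.55 ± 0.24). The ciliary kinesin Kif7 fell by 2.46 ± 0.40 and the ciliary GTPase gene Arl13b by 2.85 ± 0.32. Evc and Evc2, a pair of proteins at the base of the cilium that carry the Smoothened signal, rose by 3.50 ± 0.36 and 3.17 ± 0.31. Gpr161, a ciliary receptor that keeps the pathway off, rose by 1.92 ± 0.50. Haploid germ cell genes, which were all but lost, moved with the genes that fell, and their part in the change of Sufu, Stk36 and Kif7 was not tested.

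**Figure D3:**
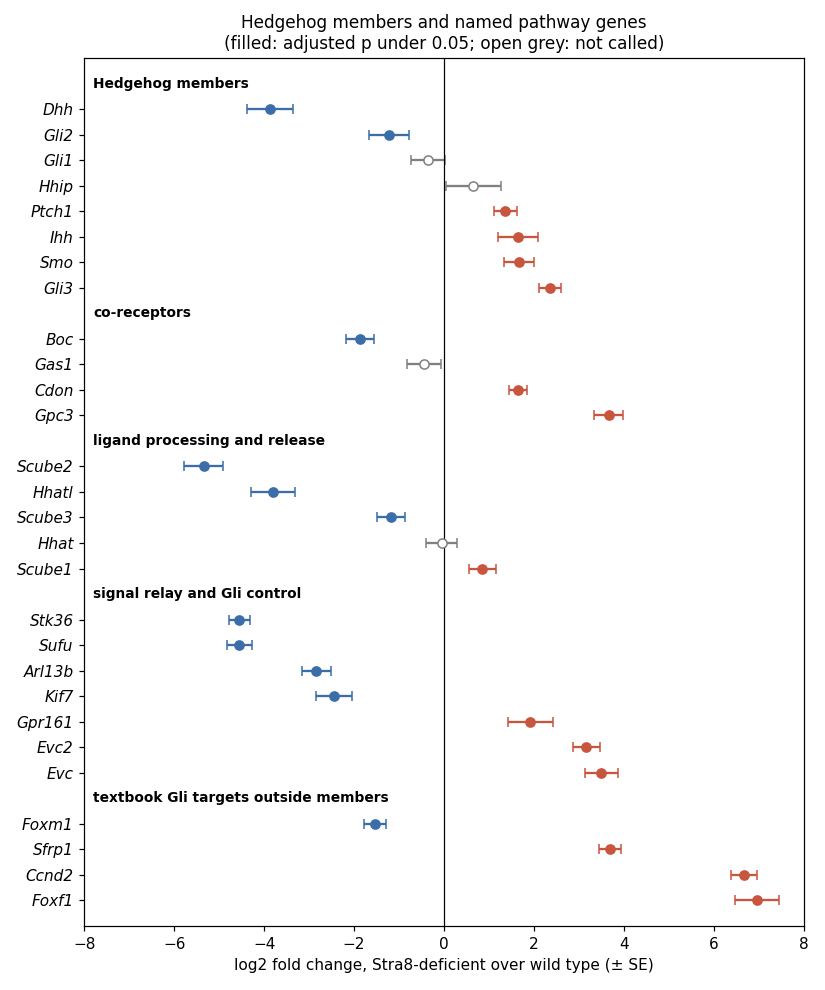
Log2 fold changes of Stra8-deficient over wild type (horizontal axis, points with SE) for the 8 tested members and the named genes of the 4 other lists; filled points passed the test and open grey points did not. Sufu and Stk36 sit at -4.55, Dhh at -3.87, Gli3 at 2.35 and Foxf1 at 6.96.

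Among textbook Gli targets other than the members, 8 of 13 tested rose, 1 fell and 4 were not called, with a median of 1.98. The other 7 of the 20 listed were too rare to be tested. Foxf1 and Bmp4 passed the filter on low counts through Stra8-deficient reads alone, so they could enter the count only as higher. The count and median are thus of a set tilted toward genes high in Stra8-deficient testes. Across all genes tested 39% rose and 36.7% fell, with a median of 0.11. Foxf1, a forkhead factor of gut and lung mesenchyme listed under its older symbol Foxf1a, went from 7, 3 and 4 reads in wild-type to 1462, 776 and 917 in Stra8-deficient libraries (6.96 ± 0.49, edgeR, adjusted p = 1.92e-06). Ccnd2, a D-type cyclin, rose by 6.67 ± 0.29 and Sfrp1, a secreted Wnt inhibitor, by 3.70 ± 0.24. Foxm1, a factor of the G2/M transition, fell by 1.53 ± 0.24, a call lost when scaled to the Sertoli list (-0.47, adjusted p = 0.293). Nkx2-1, a forebrain, lung and thyroid factor, was too rare to be tested. It had 6, 0 and 11 reads in Stra8-deficient libraries and 0 in each wild-type one, so the genotypes overlapped and the reads came from 2 libraries. Within the members, the targets Ptch1, Gli1 and Hhip stood at 1.36, -0.35 and 0.65, of which only that of Ptch1 was called. Spermatogonial genes were higher in Stra8-deficient testes too, and their part in these levels was not tested.

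The authors' deposited table lists all 9 members and gives the same signs. Its log2 ratios are -3.88 for Dhh, 3.27 for Shh, 1.66 for Ihh, 1.36 for Ptch1, 1.68 for Smo, 0.65 for Hhip, -0.35 for Gli1, -1.23 for Gli2 and 2.36 for Gli3. In the authors' deposited table Shh has a corrected p of 0.0144, and Hhip (0.208) and Gli1 (0.474) are the members above 0.05.

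The direction of most members did not hang on the scaling. Dhh stayed below 0 and Ihh, Ptch1, Smo and Gli3 above 0 under each of 6 scalings, whose medians over all genes ran from -0.009 (RLE) and 0.11 (TMM) through 0.38 (upper quartile), 0.73 (library size) and 1.18 (Sertoli list) to 4.37 (Leydig list). Under library-size scaling 63.6% of the genes called were higher and under scaling to the Sertoli list 71.0%, against 51.5% with TMM. Relative to the Sertoli list, Dhh was at -2.98 ± 0.48 and Hhip, at 1.56 ± 0.56, was called higher (edgeR, adjusted p = 0.0147). That list holds Dmrt1, which rose by 3.85 ± 0.35 and which spermatogonia express as well. As a ratio of counts, Dhh was at -2.51 to the list without Dmrt1, -1.45 to its geometric mean and -0.18 to Sox9. On CPM, Hhip lay above the wild-type libraries only in the first Stra8-deficient one (8.13, against 1.43 and 3.01 in the others). Scaled to the Leydig list, whose sum nearly vanished in the second Stra8-deficient library, edgeR called 0 genes, though 7270 had an unadjusted p under 0.05.

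**Figure D4:**
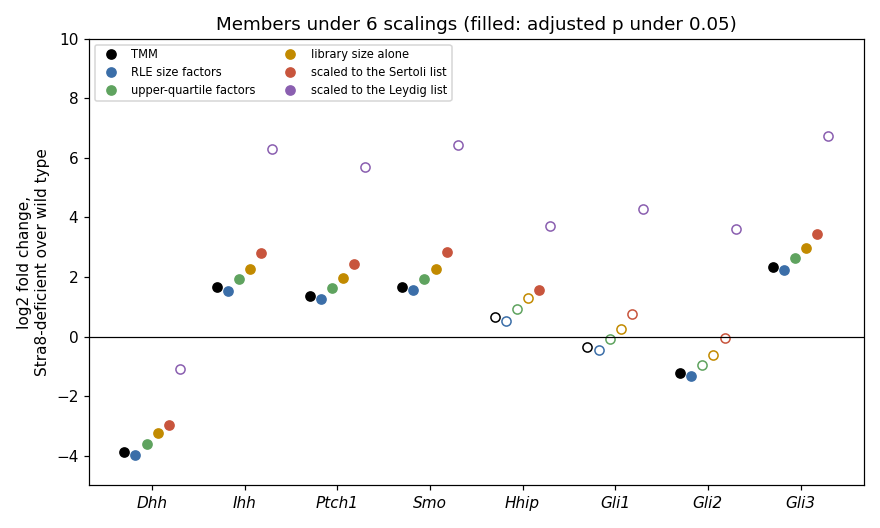
Log2 fold change of the 8 tested members (vertical axis) under 6 scalings of the libraries, one colour each; filled points have an adjusted p under 0.05. Dhh is below 0 and Ihh, Ptch1, Smo and Gli3 are above 0 throughout, while Gli1 and Gli2 change sign and all points are open under scaling to the Leydig list.

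The genes whose profile over the 6 libraries was most like that of 3 members were found by the root mean square difference of log2 CPM, each gene centred on its own mean. For Dhh they were Drd4, a dopamine receptor gene (0.162), BC021891 (0.167) and Dpysl4 (0.172), and 120 of 15010 genes lay within 0.5. For Ptch1 they were Creb3l2 (0.111), Gar1 (0.117) and Gclc (0.126), with 2866 genes within 0.5, and for Gli1 Pdgfrb (0.104), Pvr (0.106) and Klhl17 (0.123), with 2821. The measure follows the size of the genotype difference, so the smaller number near Dhh, at -3.87, is no further trait of it.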

How the data were processed

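Reads per gene were measured in 6 whole-testis libraries, 3 Stra8-deficient and 3 wild type. TopHat, HTSeq, edgeR and mm9 were named by the authors, per the submitters' processing notes. Their versions, strand setting and annotation were not given in the sources used here. Deposited counts are raw whole reads per gene symbol. The authors' deposited table holds log2 ratios and abundances and nominal and corrected p-values. HTSeq's counters (20.9% to 34.5% of reads) were left out. The third Stra8-deficient file lists 23285 symbols and the others 22055, so the 21786 shared symbols were used. Columns of unmatched samples numbered 0.

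Genes passing filterByExpr (15018) were compared with edgeR 4.0.16 (TMM factors 0.796 to 1.27, glmQLFit robust, glmQLFTest, R 4.3.3), with genotype as the only term and Benjamini-Hochberg adjustment over all genes. That filter passes a gene with enough reads in 3 libraries, so the reads of 1 genotype alone can suffice. The SE was taken as the log2 fold change over the root of the F statistic, an approximation. Alternatives used DESeq2 1.42.0, limma 3.58.1 and edgeR's exact test, other scalings, no filter, a replicate block and leaving out each library. The fits were also run on simulated data, with few genes changed and the same spread in both genotypes. That setting is unlike these data, so the simulation does not vouch for the scaling or the p-values here. No label says that libraries of a genotype came from separate animals, so p-values measure the spread between these samples, which may be technical. Spread beyond counting error (edgeR's biological coefficient of variation) was 38.2% among Stra8-deficient and 7.41% among wild-type libraries. The main fit used a dispersion per gene shared by both genotypes, so its SE and p-values reflect neither group's own spread. With weights per genotype, limma called the same 6 members. A count of 0 allows up to 3 reads, or 0.243 to 0.447 CPM before TMM scaling; intervals and this limit cover counting error only.

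The members and lists were chosen with earlier results of these data known. Named were Stra8, the 9 members, in each pathway list up to 3 called genes with the largest rise and 3 with the largest fall (mean log2 CPM no lower than 0), and Boc, Cdon, Gas1, Sufu, Kif7, Hhat and Disp1; for Dhh, Ptch1 and Gli1 the 3 genes most like each. Marker genes, Rhebl1, Arhgap9 and Bmp4 were named after their values were seen. A further pathway gene that the rule names is not reported here and was left out of the list counts. Transcript lengths were matched by symbol to GENCODE M21 and promoter windows to RefSeq; M21 coordinates served only to find overlapping genes. Ratios between a member and a marker list were compared by exact two-sided permutation over libraries, whose smallest p is 0.1.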

Additional observations from a re-analysis of the deposited data

How the results depend on the processing

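Under 10 alternatives to scaling, filter and tool, the number of genes called stayed within 1.5 times of 11379 except when scaled to the Leydig list, where edgeR called 0 genes (7270 at an unadjusted p under 0.05) and 0 members. Scaled so, Dhh was at -1.09, Ihh at 6.31, Ptch1 at 5.68, Smo at 6.45 and Gli3 at 6.73, all uncalled, and Gli1 (4.28), Gli2 (3.62), Boc (1.91), Gas1 (3.35), Hhatl (1.20), Scube3 (2.86), Hhat (4.25), Arl13b (2.10), Kif7 (1.01) and Foxm1 (2.63) changed sign, uncalled; that list summed to 19.1 CPM in 1 library. Scaled to the Sertoli list, which holds Dmrt1, Gli2 was at -0.039, uncalled, and Hhip was called at 1.56. Boc (-0.91), Scube3 (-0.17) and Foxm1 (-0.47) lost their calls there, and Gli1 (0.76), Gas1 (0.52) and Hhat (0.99) changed sign. With library size alone Gli2 (-0.60) and Scube3 (-0.56) lost their calls, and Gli1 (0.26), Gas1 (0.17) and Hhat (0.56) changed sign, and with upper-quartile factors Gli2 was at -0.94, uncalled, and Hhat at 0.22. The cause was not tested.

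Leaving out 1 library at a time gave 10357 to 11726 genes and 5 to 6 members called. Dhh ranged from -4.54 to -3.49, Ihh from 1.39 to 1.85, Ptch1 from 1.16 to 1.51, Smo from 1.36 to 1.83 and Gli3 from 2.17 to 2.48, called each time. Gli2 ranged from -1.62 to -0.86, Gli1 from -0.56 to -0.16, Hhip from -0.27 to 1.02, Hhat from -0.24 to 0.16, the Gli1 to Leydig ratio from -0.31 to 3.62, the Gli1 to peritubular ratio from 0.37 to 1.34 and the Dhh to Sertoli ratio from -3.73 to -2.77.

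Replicate numbers are shared between the genotypes but come from different males; deviations of same-numbered libraries correlated at 0.058, 0.080 and -0.040, so the numbers do not pair them. With a replicate block 11218 genes and the same 6 members were called, with Dhh at -4.05, Ihh at 1.68, Ptch1 at 1.37, Smo at 1.63, Gli3 at 2.34, Gli2 at -1.30, Gli1 at -0.36 and Hhip at 0.35. Shh, at 1 to 18 reads per genotype, is limited by depth.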
